A study of Mus musculus with 18 samples.

Results

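The clustered protocadherins are a family of cell-surface adhesion genes in tandem on mouse chromosome 18, and their levels were described across sorted mouse pancreatic tumour cells. All 58 genes whose symbols name an alpha, beta or gamma clustered protocadherin were taken, of 24493 gene symbols measured by RNA sequencing. They comprise 14 alpha genes, 22 beta genes and 22 gamma genes. The gamma genes divide into 12 of the A type, 7 of the B type and 3 of the C type, and 2 of the alpha genes are also C-type.

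The libraries came from 2 pancreatic tumour lines, 6694c2 and 6419c5, of strain C57BL/6. In each line the Kdm3aKO2 clone, the Kdm3aKO1 clone and the WT cells had 3 libraries each, so there were 6 groups and 18 libraries, and no group received a treatment. The design sets clones that lack Kdm3a, a histone H3 lysine 9 demethylase gene, against WT cells of their own line. All cells grew as subcutaneous implants and were then sorted from the tumours. The labels do not say which marker the sort used, how Kdm3a was disrupted, or whether libraries of 1 group are from different mice. Each knockout group is 1 clone, so a difference from WT describes that clone. The p-values rest on the spread between libraries within groups, pooled over the 6 groups, and that spread may be technical. A clone number has no shared meaning between the lines.

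Clustered protocadherins are cadherin-family proteins that bind the same isoform on a neighbouring cell. Every gene has its own promoter, and in single neurons a small random choice of promoters gives each cell a surface identity. Contacts between those promoters and distant enhancers form through CTCF and cohesin, while DNA methylation and histone H3 lysine 9 methylation keep promoters silent. The C-type genes are regulated apart from the others and are used more evenly among neurons. A role of single beta or alternate gamma isoforms in pancreatic tumour cells is not established and none is given here.

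On build mm10 the members lie on the plus strand of chromosome 18, the alpha genes from 36930285 to 37188897, the beta genes from 37264998 to 37521419 and the gamma genes from 37661775 to 37841873. Each alpha or gamma gene joins its own large first exon to constant exons that its cluster shares. In the GENCODE M21 annotation a median of 53.5% of the longest alpha transcript and 44.9% of the longest gamma transcript was also exon of other members. The beta genes are mostly single-exon genes, with a median shared share of 0%. Values of single gamma isoforms therefore depend on how the quantification divided reads from shared exons, whereas the beta values depend on this much less. Levels are in TPM, a transcript abundance scaled for transcript length and library, and so can be compared between genes.

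Kdm3a, the targeted gene, had 28.8, 30.2 and 25.2 TPM in 6694c2 KO2 and 26.2, 26.4 and 29.8 TPM in 6694c2 KO1, against 39.9, 38.9 and 67.6 TPM in 6694c2 WT. In the other line it had 12.3, 18.8 and 13.5 TPM in 6419c5 KO2 and 21.6, 24.6 and 21.6 TPM in 6419c5 KO1, against 38.2, 24.1 and 32.9 TPM in 6419c5 WT. Its RNA was present in every knockout library, and because the deleted part is not given, a gene total does not check the genotype. Ductal epithelial markers were high throughout, with their 8 genes summing to 5493 TPM or more in each library. The sums were 5800 to 7484 TPM in 6694c2 KO2, 5493 to 6050.5 TPM in 6694c2 KO1 and 6696 to 8412 TPM in 6694c2 WT. They were 9515 to 10345 TPM in 6419c5 KO2, 10242 to 11232 TPM in 6419c5 KO1 and 10638 to 12808 TPM in 6419c5 WT. However, Epcam was 0.745 to 1.12 TPM in 6694c2 KO2, against 21.6 to 28.3 TPM in 6694c2 WT. Markers of other cells varied more. The 10 macrophage markers summed to 570 to 3638 TPM in 6694c2 KO2, 3586 to 6625 TPM in 6694c2 KO1 and 308 to 1949 TPM in 6694c2 WT. In the other line they summed to 384 to 620 TPM in 6419c5 KO2, 2586 to 8753 TPM in 6419c5 KO1 and 1502 to 8042 TPM in 6419c5 WT. Replicate 3 of 6694c2 KO2, replicate 1 of 6694c2 KO1 and replicate 3 of 6419c5 WT, which an earlier look at these data set apart, had high sums, of 3638, 6625 and 8042 TPM in that order. Neural cells are the classical site of these genes, and of 14 neural markers 2 stood high. The tubulin gene Tubb3 was 132 to 145 TPM in the 6694c2 knockout clones and 46.3 to 51.2 TPM in 6694c2 WT, and 8.92 to 31.9 TPM in 6419c5. S100b, a Schwann and glial marker, was 13.8 to 25.5 TPM in 6694c2 and 4.01 to 9.72 TPM in 6419c5, so both were higher in the line with more beta RNA. Of the other 12, Map2 reached 6.47 TPM, Nefl 4.75 TPM, Stmn2 4.73 TPM and Snap25 2.22 TPM in their highest library, and the remaining 8 stayed below 1 TPM in all 18 libraries. Among these 8 were the defining markers Sox10 (at most 0.0984 TPM), Rbfox3 (at most 0.194 TPM) and Foxd3 (listed at 0 throughout). In such sorted samples, fewer cells of a type and less RNA per cell cannot be told apart.

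Both lines expressed beta and gamma protocadherins and almost no alpha protocadherins. Pcdhgc3 was the most abundant member in all 6 groups. Of the 12 beta genes present in any group, 11 were present in groups of 6694c2 alone, and several alternate gamma isoforms were present in 1 line alone. Here and below, a member is called present when all 3 libraries of a group reached 1 TPM. By this rule 20 of 58 were present in 6694c2 KO2, 21 in 6694c2 KO1 and 15 in 6694c2 WT. The corresponding numbers were 10 in 6419c5 KO2, 11 in 6419c5 KO1 and 8 in 6419c5 WT. In 6419c5 these counts depended on the level chosen: at 0.5 TPM they were 18 in KO1 and 14 in WT, and at 2 TPM they were 5 in KO2 and 7 in KO1. Across all libraries 33 members reached 1 TPM in at least 1 library, 14 stayed below 0.5 TPM in all, and 7 of these 14 were listed at 0 throughout.

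**Figure D1:**
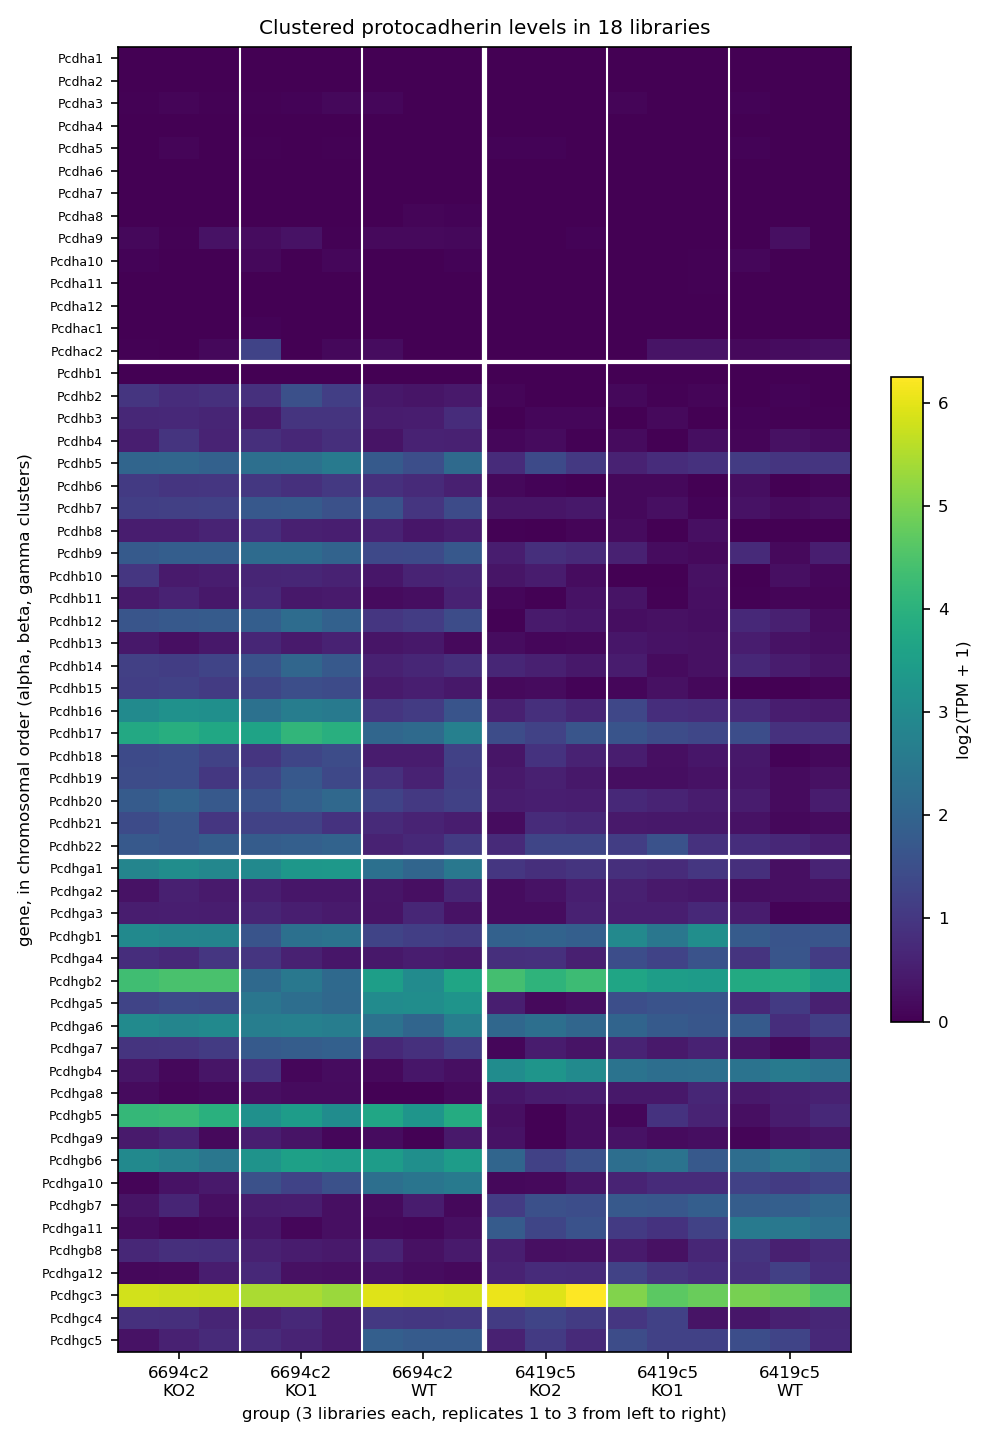
Level of each of the 58 members (rows, in chromosomal order) in each of the 18 libraries (columns, 3 per group) on a log2(TPM + 1) colour scale. The alpha block is dark in every group, the beta block is brighter in the 3 groups of 6694c2, and Pcdhgc3 is the brightest row.

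Alpha genes were the least expressed cluster. Of the 14, 6 were listed at 0 in every library and 1 reached 1 TPM in any library. That gene was the C-type Pcdhac2, with 1.41 TPM in replicate 1 of 6694c2 KO1, where the other libraries of the group had 0 and 0.0929 TPM. The same library stood apart in endothelial markers, whose 8 genes summed to 217 TPM there and to 27.8 and 24.5 TPM in the other libraries of the group, with Cdh5 at 46.3 TPM against 7.87 and 7.39 TPM. The part of those cells in the Pcdhac2 value was not tested. The other 5 groups had at most 0.265 TPM of Pcdhac2. The C-type Pcdhac1 was above 0 in 1 library, at 0.0370 TPM. Pcdha9 and Pcdha3 were the next highest alpha genes, with at most 0.244 TPM and 0.1003 TPM in any library. Summed alpha levels averaged 0.220 ± 0.122 TPM in 6694c2 KO2, 0.775 ± 0.831 TPM in 6694c2 KO1 and 0.240 ± 0.102 TPM in 6694c2 WT (SD, n = 3 each). They averaged 0.0435 ± 0.00646 TPM in 6419c5 KO2, 0.213 ± 0.128 TPM in 6419c5 KO1 and 0.272 ± 0.0798 TPM in 6419c5 WT (SD, n = 3 each). No alpha gene had a mean high enough to be tested.

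Members were tested where their mean over the 18 libraries was at least 1 TPM, as 13422 genes were. That left 20 members, 7 beta and 13 gamma, and 38 members untested. A member could pass through the groups where it was high. Pcdhb9, Pcdhb12, Pcdhb16, Pcdhb20, Pcdhga1 and Pcdhgb5 averaged under 1 TPM in every 6419c5 group. Pcdhgb4, Pcdhgb7 and Pcdhga11 did so in every 6694c2 group. Counts over the 20 therefore describe the members that passed and not the family. The test was a limma model of 6 group means on log2(TPM + 1), and a gene was called at a Benjamini-Hochberg adjusted p under 0.05 over all 13422 genes. Log2 changes are on this scale, which understates the change of genes with few TPM. The median change of all genes was 0.18 in 6694c2 KO2 minus WT, 0.11 in 6694c2 KO1 minus WT and -0.22 between the WT groups, and after median-of-ratios scaling it was -0.02, -0.04 and -0.02 in the same order. Member changes are to be read against those medians.

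The beta genes were higher in both 6694c2 knockout clones than in 6694c2 WT. The 22 beta genes summed to 46.6 ± 2.57 TPM in 6694c2 KO2 and 51.4 ± 6.01 TPM in 6694c2 KO1, against 21.2 ± 5.14 TPM in 6694c2 WT (SD, n = 3 each). By library the sums were 46.0, 49.5 and 44.4 TPM in KO2 and 45.0, 56.9 and 52.2 TPM in KO1, against 18.8, 17.6 and 27.1 TPM in WT, with no overlap. Over all 22 beta genes, 12 had every KO2 library above every WT library, where 15.7% of all 24493 genes did. In KO1, 15 of the 22 did, where 18.7% of all genes did, and in neither clone did a beta gene have every library below WT. After median-of-ratios scaling the numbers were 9 in KO2, where 8.05% of all genes did so, and 13 in KO1, where 13.1% did. All 12 beta genes present at 1 TPM in any group were present in KO2, 11 of them also in KO1 and 4 in WT. The 4 in WT were Pcdhb5, Pcdhb9, Pcdhb17 and Pcdhb20. Pcdhb1, a beta gene at the 5' end of the cluster, was listed at 0 in all 18 libraries.

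Among the 7 tested beta genes, Pcdhb17 and its neighbour Pcdhb16 had the largest changes on the log2(TPM + 1) scale in both clones. Pcdhb17 had 12.6, 14.1 and 12.3 TPM in 6694c2 KO2 and 11.3, 16.4 and 14.5 TPM in 6694c2 KO1, against 3.21, 3.47 and 5.62 TPM in 6694c2 WT. Every library of either clone exceeded every WT library. Its log2 change was 1.49 ± 0.21 in KO2 (SE, limma adjusted p = 0.00019) and 1.58 ± 0.21 in KO1 (SE, limma adjusted p = 0.00011). Pcdhb16 had 6.995, 7.98 and 7.58 TPM in 6694c2 KO2 and 4.03, 5.25 and 4.98 TPM in 6694c2 KO1, against 0.944, 1.13 and 2.06 TPM in 6694c2 WT. These groups did not overlap either. The log2 change was 1.87 ± 0.20 in KO2 (SE, limma adjusted p = 1.0e-05) and 1.30 ± 0.20 in KO1 (SE, limma adjusted p = 0.00035).

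Pcdhb22, at the 3' end of the beta cluster, rose in both clones, averaging 2.32 ± 0.193 TPM in KO2 and 2.75 ± 0.208 TPM in KO1, against 0.771 ± 0.327 TPM in WT (SD, n = 3 each). Its transcript overlaps that of Pcdhb21, so reads of this pair can be hard to separate. Pcdhb20 also rose in both, by 0.67 in KO2 and 0.69 in KO1 on the log2 scale. The KO2 call of Pcdhb20 was lost without KO2 replicate 2 (0.61, limma adjusted p = 0.056). After quantile normalization neither call of Pcdhb20 held (0.38 in KO2 and 0.19 in KO1, limma adjusted p = 0.23 and 0.49 in the same order). Pcdhb12, Pcdhb5 and Pcdhb9 were called in KO1 only, with log2 changes of 0.83, 0.58 and 0.61, while in KO2 Pcdhb12 averaged 2.31 ± 0.160 TPM against 1.29 ± 0.382 TPM in WT and was not called. Of the 7 tested beta genes 0 were called by limma in KO2 minus KO1, where 9.53% of all tested genes were, and 1 had an unadjusted p under 0.05. Quantile normalization ended 4 of the 7 KO1 beta calls, those of Pcdhb12 (0.35), Pcdhb20 (0.19), Pcdhb5 (0.14) and Pcdhb9 (0.15), and a pseudocount of 0.1 TPM ended those of Pcdhb12, Pcdhb5 and Pcdhb9. The call of Pcdhb5 was lost without any 1 of the 3 KO1 libraries, WT replicates 1 or 2, 6694c2 KO2 replicates 1 or 2, or 6419c5 KO2 replicate 3, with values of 0.42 to 0.62. The call of Pcdhb9 was lost without KO1 replicates 1 or 2 or WT replicates 1 or 2, with values of 0.55 to 0.58.

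**Figure D2:**
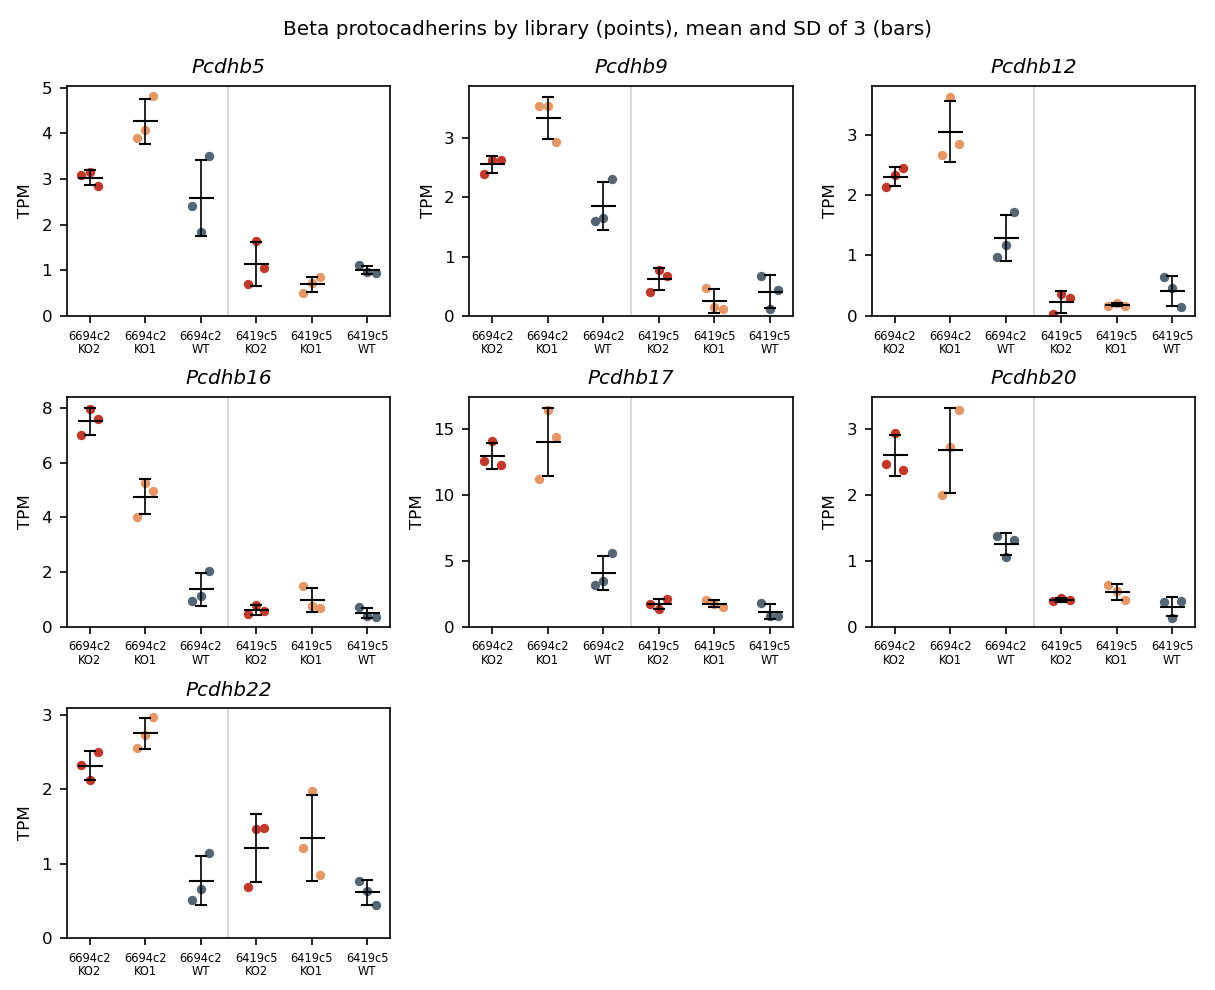
TPM of the 7 tested beta genes in each library (points), with the mean and SD of 3 libraries (black bars), for KO2, KO1 and WT of 6694c2 and then of 6419c5. Every 6694c2 knockout library lies above every 6694c2 WT library for 6 of these genes in KO1 and KO2 alike, and for Pcdhb5 only in KO1.

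Markers of other cell types moved with the beta genes in KO1. In 6694c2 KO1 minus WT, 8 of 10 macrophage markers, 8 of 9 tested fibroblast markers and 6 of 7 tested endothelial markers were higher, where 14.7% of all tested genes were. In KO2 minus WT limma called 0 on each list, where it called 14.5% of all tested genes, with 1 on each at an unadjusted p under 0.05. Of 8 ductal epithelial markers, 3 were called lower in KO2 and 4 in KO1, with 0 higher in either clone. Of all tested genes, 3.94% were lower in KO2 and 7.01% in KO1. The fibroblast markers summed to 130, 111 and 884 TPM in the KO2 replicates 1 to 3 and to 733 to 1071 TPM in KO1, against 156 to 273 TPM in WT. The macrophage markers summed to 570, 581 and 3638 TPM in the same KO2 replicates and to 3586 to 6625 TPM in KO1, against 308 to 1949 TPM in WT. The KO2 beta sums were 46.0, 49.5 and 44.4 TPM in that order. With the macrophage markers as a covariate, all 7 KO1 and all 4 KO2 beta calls held. Among neuronal markers Tubb3, which tumour cells can also express, rose to 138, 140 and 143 TPM in KO2 and 132, 145 and 135 TPM in KO1, against 51.1, 51.2 and 46.3 TPM in WT. The part of these shifts in the beta result was not tested.

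Line 6419c5 had low beta levels in every group. The beta sum was 8.96 ± 1.82 TPM in 6419c5 KO2 and 7.93 ± 1.12 TPM in 6419c5 KO1, against 6.27 ± 1.96 TPM in 6419c5 WT (SD, n = 3 each), and the groups overlapped. Of the 7 tested beta genes, 0 were called by limma in either clone, where 18.9% of all tested genes were called in KO2 and 4.79% in KO1. At an unadjusted p under 0.05 there were 0 in KO2 and 1 in KO1. Pcdhb9, Pcdhb12, Pcdhb16 and Pcdhb20 averaged under 1 TPM in all 6419c5 groups, a range in which log2(TPM + 1) understates changes. Over all 22, the KO2 libraries were all above WT for 2 beta genes, where 9.78% of all genes were, and the KO1 libraries for 4, where 8.92% of all genes were. The 4 in KO1 were Pcdhb15, Pcdhb20, Pcdhb21 and Pcdhb22. Pcdhb17 was the only beta gene to reach 1 TPM in all libraries of a 6419c5 group, in KO2 and KO1. Quantile normalization added Pcdhb9, Pcdhb17 and Pcdhb22 to the genes called in KO2.

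Gamma genes were the most expressed cluster. The 22 gamma genes summed to 123.6 ± 3.21 TPM in 6694c2 KO2 and 92.9 ± 5.17 TPM in 6694c2 KO1, against 116.9 ± 8.22 TPM in 6694c2 WT (SD, n = 3 each). They summed to 111 ± 7.93 TPM in 6419c5 KO2 and 69.7 ± 6.57 TPM in 6419c5 KO1, against 66.9 ± 7.50 TPM in 6419c5 WT (SD, n = 3 each). Pcdhgc3 accounted for 43.7%, 44.6% and 50.1% of the sum in 6694c2 KO2, KO1 and WT, and for 60.3%, 40.1% and 39.6% in 6419c5 KO2, KO1 and WT. The alternate A and B isoforms alone summed to 68.4 ± 2.12 TPM in 6694c2 KO2 and 50.5 ± 3.40 TPM in 6694c2 KO1, against 54.9 ± 8.74 TPM in 6694c2 WT (SD, n = 3 each). In unscaled TPM KO2 lay wholly above WT, which did not hold after median-of-ratios scaling, and KO1 overlapped WT. In the other line the A and B isoforms summed to 42.0 ± 2.23 TPM in 6419c5 KO2, 39.4 ± 2.48 TPM in 6419c5 KO1 and 38.6 ± 2.88 TPM in 6419c5 WT (SD, n = 3 each), which overlapped. Median-of-ratios scaling also reversed the order of the means of all 22 gamma genes, to 118.8 TPM in 6694c2 KO2 and 131.7 TPM in 6694c2 WT.

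A few isoforms supplied most of the alternate gamma RNA. The 3 leading A and B isoforms made up 63.4% of their sum in 6694c2 KO2, 51.7% in KO1 and 54.8% in WT, and 69.4% in 6419c5 KO2, 52.7% in KO1 and 53.7% in WT. In 6694c2 they were Pcdhgb2, Pcdhgb5 and Pcdhga1 in KO2, Pcdhgb6, Pcdhgb5 and Pcdhga1 in KO1, and Pcdhgb5, Pcdhgb2 and Pcdhgb6 in WT. In 6419c5 Pcdhgb2 led in every group, at 42.9 ± 2.94% of the A and B sum in KO2, 26.8 ± 2.02% in KO1 and 30.7 ± 2.73% in WT (SD, n = 3 each). It was followed by Pcdhgb4 and Pcdhga6 in KO2, Pcdhgb1 and Pcdhgb4 in KO1, and Pcdhga11 and Pcdhgb4 in WT. To reach 90% of the A and B sum took 6 of 19 isoforms in 6694c2 KO2, 9 in KO1 and 7 in WT, and 8 in 6419c5 KO2, 11 in KO1 and 10 in WT.

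**Figure D3:**
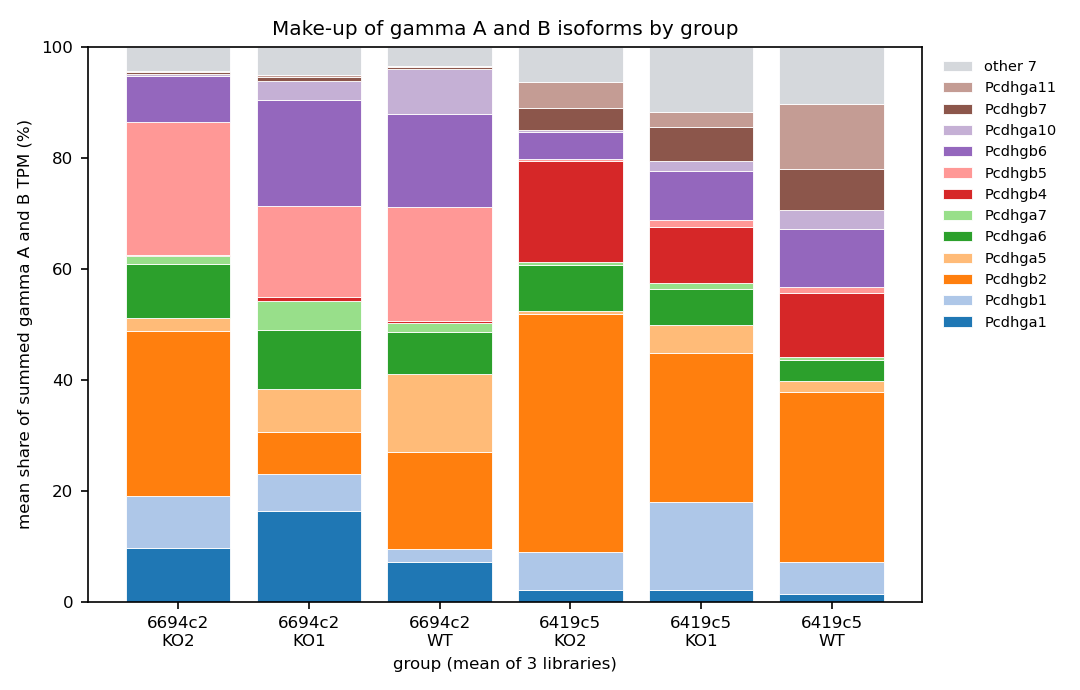
Mean share of each alternate gamma isoform in the summed A and B TPM of each group (3 libraries). The 12 isoforms with at least 5% in some group are coloured in chromosomal order from the bottom and the other 7 are grey; Pcdhgb5 is wide only in the 6694c2 bars and Pcdhgb4 only in the 6419c5 bars.

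By the 1 TPM rule, 4 gamma genes were present in all 6 groups, namely Pcdhgb1, Pcdhgb2, Pcdhgb6 and Pcdhgc3. Pcdhga1 and Pcdhgb5 were present in all 3 groups of 6694c2 and in none of 6419c5, and Pcdhga7 in 6694c2 KO1 alone. Pcdhgb4 and Pcdhgb7 were present in all 3 groups of 6419c5 and in none of 6694c2, Pcdhga11 in 6419c5 KO2 and WT, and Pcdhga4 in 6419c5 KO1 alone. Pcdhga2, Pcdhga3, Pcdhga8, Pcdhga9, Pcdhga12 and Pcdhgb8 were present in no group. These isoforms are interleaved along the cluster: Pcdhgb5 and Pcdhgb4, each marking a different line, are separated only by Pcdhga8.

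The WT groups of the lines differed in 18 of the 20 tested members, 14 higher in 6694c2 and 4 lower, while 46.3% of all tested genes differed, 14.1% higher and 32.2% lower. Members that passed the filter through 1 line alone, Pcdhgb5 and Pcdhgb4 among them, were selected towards such a difference. The count of 18 is therefore no measure of the family. The largest difference was in Pcdhgb5, an alternate gamma isoform. It had 12.01, 8.55 and 13.4 TPM in 6694c2 WT, against 0.204, 0.393 and 0.637 TPM in 6419c5 WT, a log2 difference of 3.12 ± 0.21 (SE, limma adjusted p = 3.5e-08). Pcdhga5 had 7.11, 7.43 and 8.35 TPM in 6694c2 WT, against 0.647, 1.09 and 0.474 TPM in 6419c5 WT, a log2 difference of 2.33 ± 0.16 (SE, limma adjusted p = 3.5e-08). Neither isoform overlapped between the lines.

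The reverse held for Pcdhga11, with 0.0992, 0.0844 and 0.201 TPM in 6694c2 WT, against 4.81, 4.71 and 3.89 TPM in 6419c5 WT (log2 difference -2.27 ± 0.16, SE, limma adjusted p = 5.0e-08). Pcdhgb4 averaged 0.196 ± 0.0916 TPM in 6694c2 WT and 4.42 ± 0.387 TPM in 6419c5 WT, and Pcdhgb7 averaged 0.202 ± 0.158 TPM and 2.86 ± 0.344 TPM in the same order (SD, n = 3 each). Except for Pcdhgb1, which was also lower in 6694c2 WT, the other called differences ran towards 6694c2. Pcdhgc3 had 60.2, 58.3 and 56.5 TPM in 6694c2 WT, against 30.3, 27.7 and 21.8 TPM in 6419c5 WT, a log2 difference of 1.12 ± 0.12 (SE, limma adjusted p = 3.2e-06). Pcdhga1, Pcdhga6, Pcdhga10, Pcdhgb6 and Pcdhgc5 were also higher in 6694c2 WT, by 0.67 to 1.71 on the log2 scale. Of the 7 tested beta genes 6 were higher, led by Pcdhb17 with 4.10 ± 1.32 TPM in 6694c2 WT and 1.17 ± 0.554 TPM in 6419c5 WT (SD, n = 3 each). Over all 22 beta genes, 18 had every 6694c2 WT library above every 6419c5 WT library, where 9.08% of all genes did. Pcdhgb2 and Pcdhb22 were not called. Between the WT groups 4 of 10 macrophage markers and 2 of 9 tested fibroblast markers were lower in 6694c2. Of 8 ductal epithelial markers 6 were lower and 1 higher there, where 32.2% and 14.1% of all tested genes were. With the macrophage covariate 17 members were called, where 46.1% of all genes were. Pcdhb16 (0.39, limma adjusted p = 0.13) and Pcdhgc5 (0.56, limma adjusted p = 0.075) were then lost and Pcdhgb2 was gained. The call of Pcdhgb1 (log2 difference -0.51) was lost without any 1 of the 6 WT libraries (-0.46 to -0.56), after both rescalings and in the unfiltered fit. The call of Pcdhb16 (0.64) was lost without 6419c5 WT replicate 3 (0.58) or 6694c2 WT replicate 3 (0.45), and that of Pcdhgc5 (0.67) without 6419c5 WT replicate 3 (0.45).

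In 6694c2 the knockout clones were called different from WT in 10 of 20 members in KO2, 7 higher and 3 lower, and in 14 of 20 in KO1, 9 higher and 5 lower. Of all tested genes, 14.5% were called in KO2, 10.6% higher and 3.94% lower, and 21.7% in KO1, 14.7% higher and 7.01% lower. Members such as Pcdhb9, Pcdhb12 and Pcdhb20 passed the filter through 6694c2 groups where they were high. The counts over the 20 describe only the members that passed. Both clones share the same WT libraries, so their values are given side by side. After quantile normalization the calls were 5 higher and 4 lower in KO2, and 4 higher and 6 lower in KO1, and after median-of-ratios scaling they were 6 higher and 4 lower in KO2. All the lower calls were gamma genes. Pcdhga10 had 0.0531, 0.242 and 0.335 TPM in 6694c2 KO2 and 1.93, 1.37 and 1.91 TPM in 6694c2 KO1, against 3.89, 4.41 and 4.82 TPM in 6694c2 WT. The 3 groups did not overlap. Its log2 change was -2.15 ± 0.15 in KO2 (SE, limma adjusted p = 1.5e-07) and -0.98 ± 0.15 in KO1 (SE, limma adjusted p = 0.00042).

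Pcdhga5 had 1.42, 1.64 and 1.54 TPM in 6694c2 KO2 and 4.49, 3.82 and 3.29 TPM in 6694c2 KO1, against 7.11, 7.43 and 8.35 TPM in 6694c2 WT. It was lowest in KO2, intermediate in KO1 and highest in WT, with no overlap. Its log2 change was -1.77 ± 0.16 in KO2 (SE, limma adjusted p = 1.7e-06) and -0.83 ± 0.16 in KO1 (SE, limma adjusted p = 0.0018). Pcdhgc5, a C-type gene, fell to 0.246, 0.492 and 0.674 TPM in KO2 and 0.711, 0.548 and 0.359 TPM in KO1, against 2.73, 2.45 and 2.48 TPM in WT. The log2 change was -1.28 ± 0.20 in KO2 and -1.21 ± 0.20 in KO1 (SE, limma adjusted p = 0.00058 and 0.00079 in the same order).

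Pcdhga1, the first gene of the gamma cluster, and Pcdhgb1, the fourth, rose in both 6694c2 clones. Pcdhgb1 had 6.78, 6.16 and 6.09 TPM in KO2 and 2.09, 3.94 and 4.23 TPM in KO1, against 1.43, 1.24 and 1.12 TPM in WT. All libraries of both clones exceeded WT, and those of KO2 exceeded those of KO1. Its log2 change was 1.70 ± 0.19 in KO2 (SE, limma adjusted p = 2.1e-05) and 0.93 ± 0.19 in KO1 (SE, limma adjusted p = 0.0032). Pcdhga1 averaged 6.68 ± 0.613 TPM in KO2 and 8.25 ± 1.21 TPM in KO1, against 3.91 ± 0.768 TPM in WT (SD, n = 3 each). The KO2 call of Pcdhga1 was lost without KO2 replicate 2 (0.59) or WT replicate 2 (0.54), with a pseudocount of 0.1 TPM and after both rescalings. The KO1 call of Pcdhgb1 was lost after quantile normalization (0.45, limma adjusted p = 0.19).

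Pcdhgb2 moved in opposite directions in the 6694c2 clones. It had 19.0, 21.1 and 21.0 TPM in KO2 and 3.43, 4.67 and 3.38 TPM in KO1, against 10.4, 7.10 and 11.7 TPM in WT. KO2 lay wholly above WT and KO1 wholly below it. The log2 change was 1.02 ± 0.17 in KO2 (SE, limma adjusted p = 0.00080) and -1.14 ± 0.17 in KO1 (SE, limma adjusted p = 0.00030). Directly compared, KO2 exceeded KO1 by 2.16 ± 0.17 (SE, limma adjusted p = 1.7e-05). Pcdhgc3, whose mouse protein is known to inhibit Wnt signalling through Axin1, had 55.5, 54.0 and 52.4 TPM in KO2 and 42.5, 43.1 and 38.6 TPM in KO1, against 60.2, 58.3 and 56.5 TPM in WT. It was called in KO1 only, at -0.49 ± 0.12 (SE, limma adjusted p = 0.010), and not called there with the macrophage markers as a covariate (-0.34, limma adjusted p = 0.12).

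**Figure D4:**
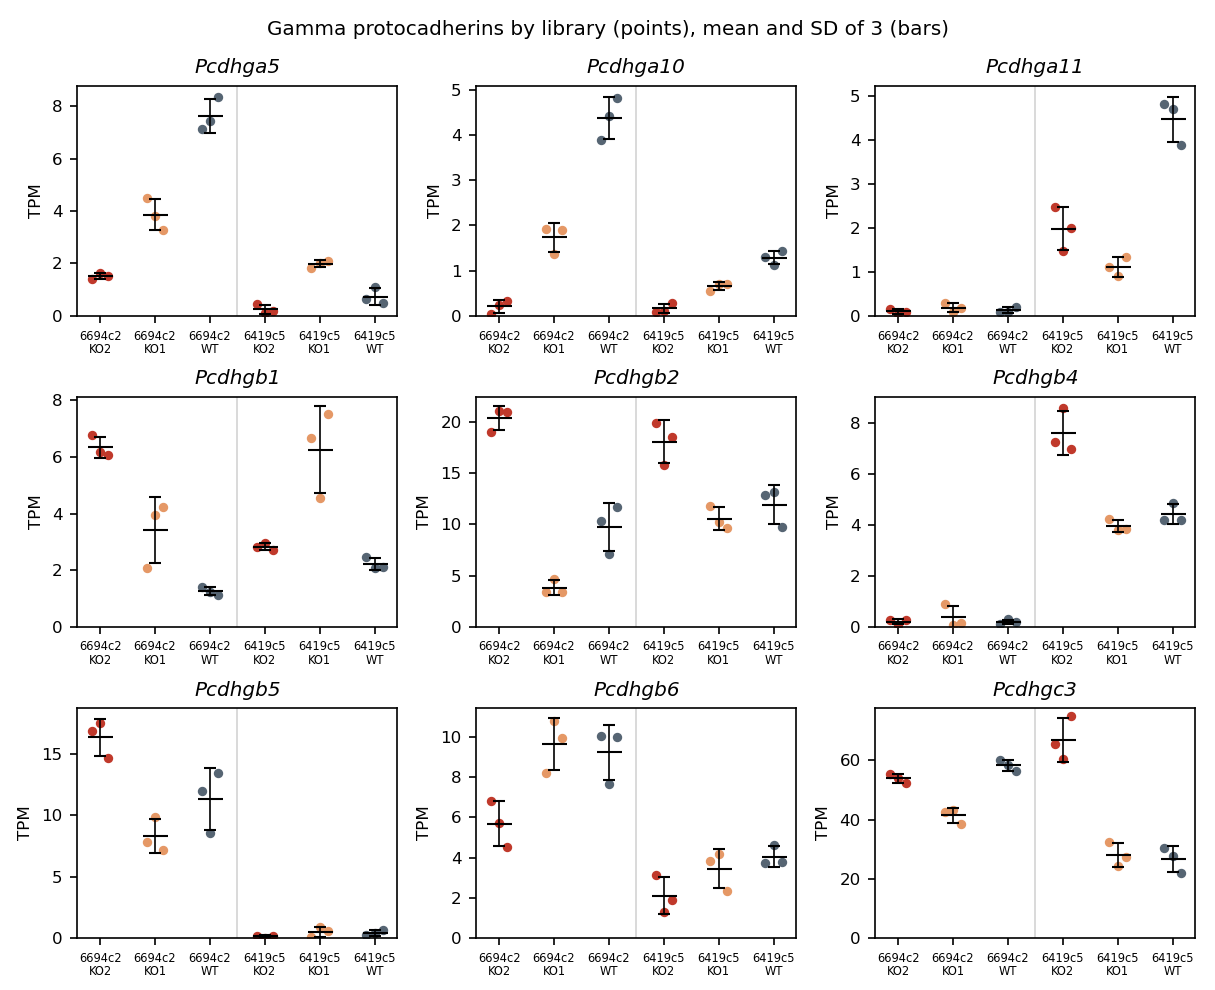
TPM of 9 gamma genes in each library (points), with the mean and SD of 3 libraries (black bars), for KO2, KO1 and WT of 6694c2 and then of 6419c5. Pcdhgb2 is high in 6694c2 KO2 and low in 6694c2 KO1, Pcdhga10 is lower in all 4 clones than in their WT, and Pcdhgc3 is high in 6419c5 KO2.

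The 6694c2 clones differed from each other in 5 of 20 members, 3 higher in KO2 and 2 lower, where 9.53% of all genes differed, 5.27% higher and 4.26% lower. Pcdhgb2, Pcdhga10 and Pcdhga5 made up the calls that held in every alternative fit. Pcdhga10 was lower in KO2 by -1.18 ± 0.15 (SE, limma adjusted p = 0.00061) and Pcdhga5 by -0.94 ± 0.16 (SE, limma adjusted p = 0.0030). Pcdhgb1 (0.77) and Pcdhgb5 (0.91) were higher in KO2. The count dropped to 3 without KO2 replicate 1 or 2, where Pcdhgb1 was at 0.73 and 0.78 and Pcdhgb5 at 0.88 and 0.86. Pcdhgb1 was also lost without KO1 replicate 1 (0.53), and Pcdhgb5 without KO1 replicate 3 (0.82). In KO2 minus KO1, 1 of 10 macrophage, 5 of 9 tested fibroblast and 4 of 7 tested endothelial markers were called lower. All 10 macrophage markers had an unadjusted limma p under 0.05, with a median log2 change of -2.34. The macrophage sums were 570, 581 and 3638 TPM in KO2 and 3586 to 6625 TPM in KO1, so they overlapped through KO2 replicate 3 alone. With the macrophage covariate the same 3 members stayed called.

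In 6419c5 the clones were called different from WT in 8 of 20 members in KO2, 4 higher and 4 lower, where 18.9% of all genes were called, 7.97% higher and 11% lower. In KO1 they were called different in 3 of 20, 2 higher and 1 lower, where 4.79% were called, 3.14% higher and 1.65% lower. All of them were gamma genes, and both clones share the same WT libraries. After quantile normalization the calls were 8 higher and 2 lower in KO2, and 1 higher and 2 lower in KO1. Pcdhga11, the isoform that marked WT cells of this line, fell in both clones, to 2.47, 1.48 and 2.002 TPM in 6419c5 KO2 and 1.10, 0.897 and 1.34 TPM in 6419c5 KO1, against 4.81, 4.71 and 3.89 TPM in 6419c5 WT. No knockout library reached the lowest WT library. The log2 change was -0.88 ± 0.16 in KO2 (SE, limma adjusted p = 0.0015) and -1.37 ± 0.16 in KO1 (SE, limma adjusted p = 7.5e-05).

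Pcdhgc3 rose in 6419c5 KO2, with 65.5, 60.4 and 75.0 TPM, and was 32.3, 24.3 and 27.5 TPM in 6419c5 KO1, against 30.3, 27.7 and 21.8 TPM in 6419c5 WT. KO2 stood apart and KO1 overlapped WT. The log2 change in KO2 was 1.31 ± 0.12 (SE, limma adjusted p = 5.3e-06). Pcdhga10 fell in KO2 to 0.0888, 0.117 and 0.287 TPM and was 0.547, 0.706 and 0.705 TPM in KO1, against 1.30, 1.14 and 1.43 TPM in WT. It was called in KO2 at -0.98 ± 0.15 (SE, limma adjusted p = 0.00047). In KO1 the change was -0.47 ± 0.15 (SE, limma adjusted p = 0.10), which was called without the filter and after quantile normalization.

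In 6419c5 KO1 the higher members were Pcdhgb1 and Pcdhga5. Of the marker lists, 3 of 4 tested muscle markers were also higher in this comparison, and their part in it was not tested. Pcdhgb1 had 2.84, 2.97 and 2.71 TPM in KO2 and 6.69, 4.56 and 7.53 TPM in KO1, against 2.48, 2.08 and 2.13 TPM in WT. Its log2 change in KO1 was 1.15 ± 0.19 (SE, limma adjusted p = 0.0017), and it was not called in KO2. Pcdhga5 averaged 0.253 ± 0.169 TPM in KO2 and 1.99 ± 0.140 TPM in KO1, against 0.736 ± 0.316 TPM in WT (SD, n = 3 each), and was called in KO1 at 0.80. Quantile normalization left Pcdhga5 at 0.68 (limma adjusted p = 0.057).

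The remaining 6419c5 KO2 calls were Pcdhga6 (0.90), Pcdhgb4 (0.66), Pcdhgb2 (0.57), Pcdhgb6 (-0.74) and Pcdhgb7 (-0.58). The macrophage markers moved with this comparison, with all 10 lower in KO2 than in WT. Of 8 ductal epithelial markers 4 were also lower and 0 higher, where 11% and 7.97% of all tested genes were. With the macrophage markers as a covariate, the count dropped to 4, and Pcdhga6 (0.55), Pcdhgb4 (0.73), Pcdhgb2 (0.25) and Pcdhgb7 (-0.49) were no longer called. Pcdhgc3 (1.14), Pcdhgb6 (-1.01), Pcdhga11 (-0.98) and Pcdhga10 (-0.84) stayed called. The count was 5 without KO2 replicate 3 or WT replicate 3. Pcdhgb2 was lost without KO2 replicates 1 (0.50) or 3 (0.55) or WT replicate 3 (0.44). Pcdhgb4 was lost without KO2 replicates 1 (0.69) or 2 (0.58) or WT replicates 1 (0.64) or 3 (0.63). Pcdhgb6 was lost without KO2 replicates 2 (-0.55) or 3 (-0.71) or WT replicates 2 (-0.66) or 3 (-0.78). Pcdhgb7 was lost without KO2 replicates 1 (-0.44) or 3 (-0.62) or WT replicates 2 (-0.60) or 3 (-0.50).

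The 6419c5 clones differed from each other in 7 of 20 members, 4 higher in KO2 and 3 lower, where 26.3% of all genes differed, 7.38% higher and 18.9% lower. After quantile normalization the calls were 8 higher and 1 lower. Pcdhgc3 was higher in KO2 by 1.23 ± 0.12 (SE, limma adjusted p = 9.7e-06), and Pcdhga5 was lower by -1.26 ± 0.16 (SE, limma adjusted p = 6.9e-05). Both of these calls held in every alternative. Pcdhgb1 was lower by -0.90 ± 0.19 (SE, limma adjusted p = 0.0035). Pcdhgb4 (0.79), Pcdhgb2 (0.72) and Pcdhga11 (0.49) were higher and Pcdhga10 (-0.51) was lower. All 10 macrophage, 6 of 9 tested fibroblast and 4 of 4 tested muscle markers were lower in KO2 than in KO1, and with the macrophage covariate the count was 3. Pcdhga11 was lost without KO2 replicates 1 (0.38) or 3 (0.48) or KO1 replicates 1 (0.49) or 2 (0.42). Pcdhga10 was lost without KO2 replicates 1 (-0.46) or 2 (-0.48) or KO1 replicates 2 or 3 (both -0.48).

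**Figure D5:**
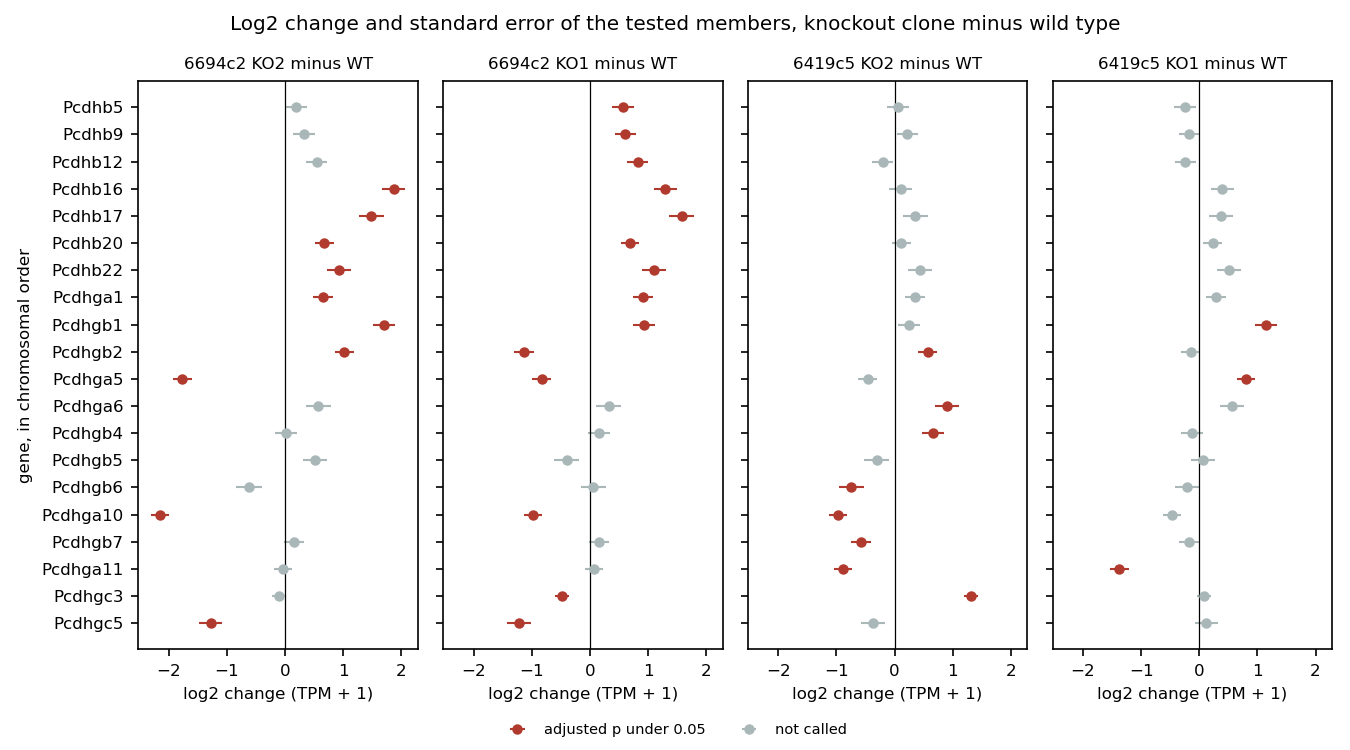
Log2 change and standard error (horizontal bars) of the 20 tested members, each knockout clone minus the WT of its line, in chromosomal order from the top; red points were called at an adjusted p under 0.05. Beta points lie to the right in both 6694c2 panels, and Pcdhgb2 points right in 6694c2 KO2 and left in 6694c2 KO1.

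The knockout effect, taken as the mean of both clones minus WT, differed between the lines in 8 of 20 members, where 8.71% of all genes differed. Of these, 4 had a higher effect in 6694c2 than in 6419c5 and 4 a lower effect, against 5.78% and 2.93% of all genes. After quantile normalization the calls were 2 higher and 4 lower. The higher ones were Pcdhb12, Pcdhb16, Pcdhb17 and Pcdhga11, and the lower ones Pcdhga5, Pcdhga10, Pcdhgc3 and Pcdhgc5. The error of this contrast comes from the spread between libraries and leaves out the spread between the 2 clones of a line. In 6419c5, Pcdhgc3 changed by 1.31 in KO2 and 0.08 in KO1, and Pcdhga5 by -0.46 and 0.80 in the same order. Pcdhga11 was below 0.3 TPM in every 6694c2 library. Pcdhb12 and Pcdhb16 averaged under 1 TPM in every 6419c5 group, where the log2(TPM + 1) scale understates changes. Pcdhga11, Pcdhb12 and Pcdhb16 thus passed the filter through 1 line alone, which selects towards a difference between the lines. The calls of Pcdhb17 (0.76) and Pcdhb12 (0.43) were lost after quantile normalization (limma adjusted p = 0.089 and 0.27 in the same order), and those of Pcdhb17, Pcdhb12 and Pcdhga10 with a pseudocount of 0.1 TPM. The call of Pcdhb12 was also lost without 6419c5 WT replicate 1 (0.79), 6694c2 WT replicate 1 (0.81) or 6694c2 WT replicate 2 (0.87).

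Of 12 chromatin loop factors, all tested, 1 was called in each KO2 clone and 0 in each KO1 clone, where 0 also had an unadjusted p under 0.05. Of all tested genes, 14.5% were called in 6694c2 KO2, 18.9% in 6419c5 KO2, 21.7% in 6694c2 KO1 and 4.79% in 6419c5 KO1. The called factors were Smc1a, a cohesin subunit, higher in 6694c2 KO2 (0.43), and Mau2, a cohesin loader subunit, lower in 6419c5 KO2 (-0.24). Ctcf, the loop anchor, averaged 46.6 ± 2.66 TPM in 6694c2 KO2, 43.9 ± 1.72 TPM in KO1 and 43.1 ± 7.39 TPM in WT (SD, n = 3 each) and was not called in any comparison. In 6419c5 Ctcf averaged 35.2 ± 4.83 TPM in KO2, 39.7 ± 3.88 TPM in KO1 and 42.1 ± 5.55 TPM in WT (SD, n = 3 each). Of 24 silencing and DNA methylation factors 22 were tested, and Kdm3a was lower in both 6694c2 clones (-0.73 in KO2 and -0.76 in KO1) and in 6419c5 KO2 (-1.04). It was not called in 6419c5 KO1.

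The other silencing factors did not move alike across clones. In 6694c2 KO2 the maintenance DNA methyltransferase Dnmt1 was higher (0.37), and in 6694c2 KO1 it was lower (-0.26). In 6694c2 KO1, 7 of the 22, Kdm3a included, were lower and 0 higher, where 7.01% of all tested genes were lower and 14.7% higher. Uhrf1 (-0.49), a partner of Dnmt1, and the repressor partner Rcor1 (-0.42) came next after Kdm3a. In 6419c5 KO2, 3 were higher, namely the lysine 9 methyltransferase Ehmt2 (0.55), the Setdb1 partner Atf7ip (0.41) and the corepressor Trim28 (0.26), and besides Kdm3a the repressor Rest was lower (-0.37). Of all tested genes, 7.97% were higher in 6419c5 KO2 and 11% lower. In 6419c5 KO1, 0 of the 22 were called by limma, where 4.79% of all tested genes were, and 3 had an unadjusted p under 0.05. Between the clones, 2 of the 22 were higher in 6694c2 KO2 than in KO1, namely Uhrf1 (0.86) and Dnmt1 (0.63), where 5.27% of all tested genes were. In 6419c5 KO2 minus KO1, 4 were higher and 3 lower, where 7.38% of all tested genes were higher and 18.9% lower. Cbx5 (1.04), a heterochromatin protein gene, was ahead of the others. Between the WT groups 8 were higher and 2 lower in 6694c2, led by the lysine 9 methyltransferase Suv39h1 (0.99). Of all tested genes, 14.1% were higher there and 32.2% lower. Smchd1 and Setdb1, which repress these clusters in mouse, were called in no clone, with log2 changes of 0.23 to 0.60 and -0.05 to 0.18 over the 4 clones, and Setdb1 was lower in 6694c2 WT than in 6419c5 WT (-0.43, limma adjusted p = 0.0031).

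Of 22 partners and effectors of the proteins 18 were tested. The kinase Ptk2b, which gamma and alpha protocadherins bind and inhibit, was lower in both 6694c2 clones (-0.37 in KO2 and -0.47 in KO1). The kinase gene Fyn was higher in 6694c2 KO1 (1.98), as was the actin regulator Wasf1 (0.91), and Wasf2 was higher in 6694c2 KO2 (0.22). Most macrophage, fibroblast and endothelial markers were also higher in 6694c2 KO1, and their part in the Fyn and Wasf1 values was not tested. Ptk2, a kinase related to Ptk2b, was higher in 6419c5 KO2 (0.42). In 6419c5 KO1, limma called 0 of the 18, where it called 4.79% of all tested genes, and 1 had an unadjusted p under 0.05. Of 21 protocadherins and related cadherins outside the clusters 6 were tested, and every call against WT was lower. Lower calls numbered 2 of 6 in 6694c2 KO2, 3 of 6 in 6694c2 KO1 and 1 of 6 in 6419c5 KO2. Of all tested genes, 3.94%, 7.01% and 11% were lower in the same order. Celsr2, a planar polarity cadherin, was lower in both 6694c2 clones (-0.94 in KO2 and -0.62 in KO1), with Pcdh9 lower in 6694c2 KO2 (-1.06). Pcdh7 (-0.74) and Fat1 (-0.54) were lower in 6694c2 KO1, and Celsr1 (-0.50) in 6419c5 KO2. In 6419c5 KO1, limma called 0 of the 6, where it called 4.79% of all tested genes, and 2 had an unadjusted p under 0.05. Between the WT groups Pcdh9 (1.496), Celsr2 (1.20) and the kinase gene Ptk2b (1.24) were higher in 6694c2, and Fyn (-1.62) was lower.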

How the data were processed

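Total RNA of sorted tumour cells was sequenced, per the labels' protocols, by a commercial company after column extraction. The authors deposited TPM for 24493 gene symbols, made with Salmon on mouse build mm10 per the submitters' processing notes; the Salmon version, the annotation and the summing of transcripts to genes are not given in the sources used here. The name of the deposited table holds the word batch without explanation, so an adjustment between batches cannot be told. TPM carry no read numbers: depth is unknown and no interval or floor from counting is given. Between 12213 and 13590 genes reached 1 TPM per library, Pearson correlations of log2(TPM + 1) across genes were 0.970 to 0.994 within groups, and no libraries were identical. Column headers letter the clones, and clone A was read as KO1 and clone B as KO2; an error there would swap the clone names and the sign of KO2 minus KO1.

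Genes averaging 1 TPM or more were fitted with limma 3.58.1 in R 4.3.3 on log2(TPM + 1), in 1 model with a mean per group (12 residual degrees of freedom, trend, empirical Bayes), with Benjamini-Hochberg adjustment over 13422 genes and calls under 0.05. The script was tested on simulated data. There were 8 contrasts; the difference of knockout effect between lines was added after seeing the data. Named genes are every called member, the 3 highest members of each cluster, the C-type members, up to 4 called genes per pathway list and contrast, and Kdm3a, Ctcf, Smchd1 and Setdb1. Members and lists were chosen with earlier results of these data known. Positions come from RefSeq on GRCm38 (all 58 matched). Exon sharing comes from GENCODE M21, where Pcdha10 was not matched. The alternatives varied the filter, the pseudocount (0.1 TPM), the scaling, the replicate term, a macrophage covariate, and the libraries used.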

Additional observations from a re-analysis of the deposited data

Results flagged for a closer look

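The knockout effect, the mean of both clones minus WT on the log2(TPM + 1) scale, differed between 6694c2 and 6419c5 in the limma test of that difference for 8 members. The error of that test comes from the spread between libraries and leaves out the spread between the 2 clones of a line. The differences, 6694c2 minus 6419c5, were 1.33 for Pcdhb16 (adjusted p = 0.0035), 1.16 for Pcdhb17 (adjusted p = 0.012) and 0.90 for Pcdhb12 (adjusted p = 0.020), beta genes for which every library of both 6694c2 clones exceeded every 6694c2 WT library; Pcdhb12 was not called in 6694c2 KO2 alone. They were -1.47 for Pcdhga5 (adjusted p = 0.00033), -1.13 for Pcdhgc5 (adjusted p = 0.012), -0.99 for Pcdhgc3 (adjusted p = 0.00098) and -0.84 for Pcdhga10 (adjusted p = 0.012). The difference was 1.15 for Pcdhga11 (adjusted p = 0.0024), which was below 0.3 TPM in every 6694c2 library and fell in both 6419c5 clones. Pcdhb12 and Pcdhb16 averaged under 1 TPM in every 6419c5 group, where this scale understates changes. The Pcdhb17, Pcdhb12 and Pcdhga10 calls were lost with a pseudocount of 0.1 TPM (adjusted p = 0.063, 0.086 and 0.23 in that order), and the Pcdhb17 and Pcdhb12 calls after quantile normalization (0.76 and 0.43). The 6419c5 effect of Pcdhgc3 averages 1.31 in KO2, which was called, and 0.08 in KO1, which was not. In 6419c5 Pcdhga5 moved differently by clone, averaging 0.253 TPM in KO2 and 1.99 TPM in KO1, against 0.736 TPM in WT, with the clones on either side of WT.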

How the results depend on the processing

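Of the 65 calls of single members in the 7 contrasts other than the difference between lines, 41 held in every alternative and 50 on leaving out any 1 library; no called value changed sign. The number of members called changed by over 1.5 times in these cases. With the macrophage covariate it was 4 in 6419c5 KO2 minus WT, 3 in 6419c5 KO2 minus KO1 and 3 in 6694c2 KO2 minus KO1. Without the filter it was 9 in 6694c2 KO2 minus KO1 and 31 between the WT groups, where 51 members were tested. With a pseudocount of 0.1 TPM it was 5 for the difference between lines. Leaving out 1 library gave 5 to 9 in 6419c5 KO2 minus WT and 3 to 6 in 6694c2 KO2 minus KO1. Without the 3 libraries that an earlier look at these data set apart, the counts were 10 and 12 in 6694c2 KO2 and KO1, 6 and 3 in 6419c5 KO2 and KO1, 4 and 8 between the clones of 6694c2 and 6419c5, 16 between the WT groups and 8 for the difference between lines. Members present at 0.5 TPM numbered 18 in 6419c5 KO1 and 14 in 6419c5 WT, at 2 TPM 5 in 6419c5 KO2 and 7 in 6419c5 KO1, and by a group mean of 1 TPM 13 in 6419c5 WT. Median-of-ratios scaling gave gamma sums of 118.8 TPM in 6694c2 KO2 and 131.7 TPM in 6694c2 WT. The unscaled means, 123.6 and 116.9 TPM, were in the opposite order. The labels do not say that replicate numbers pair libraries, and same-numbered libraries deviated together in 15 of 45 pairs (correlation over 0.1; median -0.04). With the replicate block the counts were 10 and 14 in 6694c2 KO2 and KO1, 8 and 3 in 6419c5 KO2 and KO1, 5 and 7 between the clones of 6694c2 and 6419c5, 17 between the WT groups and 8 for the difference between lines, the lost call being Pcdhgb1 between the WT groups. The causes of these changes were not tested. Depth is unknown, so no limit of detection can be given for members listed at 0.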

Other observations

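The genes considered around and between the clusters, a set of 12 chosen after seeing the data, were Wdr55, Dnd1, Hars, Hars2 and Zmat2 before the alpha genes, Slc25a2 and Taf7 between the beta and gamma genes, and Diaph1, Hdac3, Rell2, Fchsd1 and Arap3 after the gamma genes. Of the 11 tested, limma called 5 higher and 0 lower in 6694c2 KO2 minus WT, and 3 higher and 1 lower in 6694c2 KO1 minus WT. It called 7 higher and 0 lower in 6419c5 KO2 minus WT, and 1 higher and 0 lower in 6419c5 KO1 minus WT. Of all tested genes, 10.6% were higher and 3.94% lower in 6694c2 KO2, and 14.7% and 7.01% in 6694c2 KO1. In 6419c5 these shares were 7.97% and 11% in KO2, and 3.14% and 1.65% in KO1. In KO2 minus KO1, 2 neighbours were higher and 0 lower in 6694c2, where 5.27% and 4.26% of all tested genes were. In 6419c5, 8 were higher and 1 lower, where 7.38% and 18.9% were. Hars2, a mitochondrial histidyl-tRNA synthetase gene, and Zmat2 were higher in both 6694c2 clones (Hars2 0.60 in KO2 and 0.35 in KO1, Zmat2 0.57 and 0.39 in the same order) and in 6419c5 KO2 (0.61 and 0.51). Arap3 was lower in 6694c2 KO1 (-1.02) and higher in 6419c5 KO2 (0.85). Hdac3, a histone deacetylase gene next to the gamma cluster, was higher in 6694c2 KO2 (0.32) and in 6419c5 KO2 (0.45).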
